A study of Mus musculus with 8 samples.

Results

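The early oocyte programme was followed in fetal germ cells and germ cell-like cells through 10 genes, chosen by name and found by their Entrez identifiers among the 21950 genes of a table of read counts. They were the transcription factors *Sohlh2* (Entrez 74434, chr3:55182044-55209957 in GRCm38), *Sohlh1* (227631, chr2:25842995-25847248), *Figla* (26910, chr6:86016494-86020996) and *Nobox* (18291, chr6:43303674-43310072), the general transcription factor subunit *Taf4b* (72504, on chromosome 18), the growth factors *Gdf9* (14566, chr11:53430774-53437904) and *Bmp15* (12155, chrX:6314054-6320724), the zona pellucida genes *Zp2* (22787, chr7:120126762-120145291) and *Zp3* (22788, chr5:135980105-135988624), and the maternal effect gene *Zar1* (317755, chr5:72577113-72581361). All 10 had a row in the table. The counts are of reads on the exons of a single isoform per gene.

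The 2 cell populations compared were d6PGCLCs and E12.5 PGCs. The d6PGCLCs were primordial germ cell-like cells at day 6 of PGCLC induction, which is day 8 of culture, from a single female mouse iPSC line that carries Blimp1-Venus and Stella-ECFP reporters (BVSC-iPSC) and was derived from adult tail tip fibroblasts. They were induced in aggregates with BMP4, SCF, LIF and EGF and sorted for both reporters. The PGCs came from C57BL/6J female gonads at embryonic stage E12.5 and were sorted as positive for SSEA1 and integrin β3. Each group had 4 pools from independent experiments, each sequenced as a poly(A) library. The study asked how cells made in culture compare with their counterparts in the embryo. The paper cites work that likens d6PGCLCs to migrating PGCs, an earlier stage than the gonadal PGCs compared here. The line, the reporters, the sort, the developmental stage and the gonadal surroundings differed together with the cell population, as the mouse strain may have. Their contributions cannot be told apart. The methods of the study name no strain for the iPSC line.

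After their arrival in the female gonad PGCs stop dividing, enter meiosis and arrest, and around birth each oocyte is enclosed by pregranulosa cells in a primordial follicle. SOHLH1, SOHLH2, FIGLA and NOBOX are DNA-binding factors that are needed for primordial follicles to form or to start growth, and loss of any of them in the mouse leads to a loss of oocytes. SOHLH1, SOHLH2 and FIGLA have a basic helix-loop-helix domain, which binds E-boxes, NOBOX has a homeodomain, and TAF4B is a gonad-enriched paralog of TAF4 in the TFIID complex. GDF9, BMP15, the zona proteins and ZAR1 are products of the growing oocyte, and they lie downstream of these factors in time.

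Upstream sequences were taken from the RefSeq promoter table of GRCm38.p6, in which 7 of the 10 genes had an entry. *Sohlh2* and *Sohlh1* are shown because they were the genes that passed both thresholds of the comparison below, and *Zp3* because it is a gene of the growing oocyte that stayed near the limit of detection. Each line gives the 250 bases before the start of the gene, 5′ to 3′ on the coding strand. Capitals mark matches to the E-box CANNTG, which includes the palindrome CACGTG. The windows are chr3:55181794-55182043 on the plus strand for *Sohlh2*, chr2:25847249-25847498 on the minus strand for *Sohlh1* and chr5:135979855-135980104 on the plus strand for *Zp3*.
Sohlh2: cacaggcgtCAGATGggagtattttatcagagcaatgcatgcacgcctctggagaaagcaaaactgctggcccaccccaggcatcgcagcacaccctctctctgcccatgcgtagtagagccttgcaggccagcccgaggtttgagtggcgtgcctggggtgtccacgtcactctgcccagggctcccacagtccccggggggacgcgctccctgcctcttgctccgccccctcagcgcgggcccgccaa
Sohlh1: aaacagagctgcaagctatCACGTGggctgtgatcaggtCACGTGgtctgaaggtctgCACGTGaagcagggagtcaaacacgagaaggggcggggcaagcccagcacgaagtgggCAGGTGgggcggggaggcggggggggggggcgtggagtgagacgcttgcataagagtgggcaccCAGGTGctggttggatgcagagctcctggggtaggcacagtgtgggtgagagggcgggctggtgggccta
Zp3: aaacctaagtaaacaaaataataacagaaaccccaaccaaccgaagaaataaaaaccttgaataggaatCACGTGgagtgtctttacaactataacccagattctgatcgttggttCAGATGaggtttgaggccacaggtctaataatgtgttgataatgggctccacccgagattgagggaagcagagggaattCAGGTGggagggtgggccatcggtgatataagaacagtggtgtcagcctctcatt

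In the window from 250 bases before to 50 bases after the start, *Sohlh1* held 5 E-boxes, of which 3 were CACGTG, at 231, 211 and 192 bases before the start. Of the 32851 promoters in the RefSeq table, 7.15% held CACGTG and 29 held it at least 3 times, a number chosen after the *Sohlh1* sequence had been seen. *Zp3* had 1 CACGTG at 181 bases before the start among 4 E-boxes, and *Sohlh2* had a single E-box, CAGATG, at 241 bases. E-boxes as such were common, with CANNTG present in 72.3% of all promoters on either strand. The homeodomain core TAATTG was in none of the 7 windows and in 8.00% of all, while TAATTA was found in that of *Bmp15* at 225 bases before the start and in 5.29% of all. *Bmp15* also held the only TATAAA, on the opposite strand at 155 bases, a motif present in 13.6% of promoters. A match of these letters describes the window and does not show that a factor binds there.

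The windows differed in CpG content. *Sohlh2* and *Zar1* had 17 CpG dinucleotides in 300 bases, *Figla* 16, *Sohlh1* 14 and *Nobox* 13, against a median of 7 over all promoters. *Zp3* had 7 and *Bmp15* had 2. The windows of *Figla*, *Nobox* and *Zar1* rest on a start in the promoter table that lies inside the gene span given above, so that these windows fall within that span. Those of *Sohlh2*, *Sohlh1*, *Zp3* and *Bmp15* begin before the span. *Zar1* had no read in any library, while *Sohlh2*, with the same CpG number, was the only well-expressed gene with a window. *Taf4b* had no promoter entry, and a relation of CpG content to read level was not tested.

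**Figure D1:**
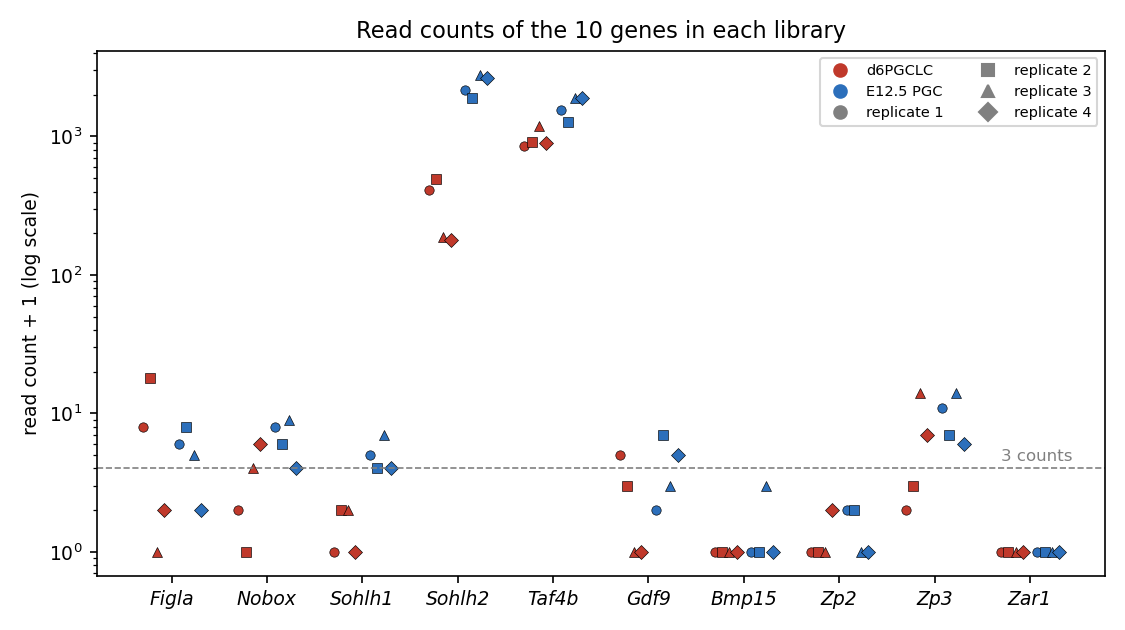
Read counts of the 10 genes in each library, as count + 1 on a log scale, for d6PGCLCs (red) and E12.5 PGCs (blue), with a marker shape for each replicate and a dashed line at 3 counts. *Sohlh2* and *Taf4b* lie between 177 and 2795 counts, and no other gene exceeds 17 counts in a library.

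Only *Sohlh2* and *Taf4b* were expressed well above the limit of detection in both populations. The limit was taken as 3 counts, which is between 0.249 and 0.383 CPM depending on the library, where CPM express each count relative to the TMM-scaled size of its library. Reads carry no molecular identifiers, so that this limit and the intervals on counts reflect counting error alone. In d6PGCLCs, 2 of the 10 genes had more than 3 counts in every library, and in E12.5 PGCs 3 had, with *Zp3* as the third. At 10 counts it was the same pair of genes in each population. The other genes gave between 0 and 17 counts per library. As the samples are pools, a low level in many cells and a higher level in a few cells cannot be told apart, nor can fewer expressing cells and less RNA per cell.

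Both *Sohlh2* and *Taf4b* were lower in d6PGCLCs than in E12.5 PGCs, to very different extents. Of the 10 genes, 3 were lower when the adjusted p (Benjamini-Hochberg, edgeR's quasi-likelihood test) was held to 0.05, against 15.4% of all genes, and none was higher, against 16.1%. None was higher at an unadjusted p of at most 0.05 either, nor in DESeq2 or in the likelihood ratio test. When a log2 fold change of 2 or more in either direction was required as well, 2 genes were called lower, *Sohlh2* and *Sohlh1*, against 3.37% of all genes, and 3.24% of all genes were called higher. The count fell to 1, *Sohlh2*, without d6PGCLC replicate 1 or 4, without E12.5 PGC replicate 1 or 3, with a replicate block, under both filters on low counts, with a prior count of 2 and at an adjusted p of 0.01. The median log2 fold change (d6PGCLC over E12.5 PGC) of the 10 genes was -0.84 as fitted and -0.67 with the genes at the limit of detection set to their bound, against 0.0 over all genes. All genes but *Sohlh2* and *Taf4b* were near or below the limit, so that these counts rest on few informative members.

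SOHLH2 is a germ cell-specific transcription factor that acts together with SOHLH1 and is among the earlier factors of the programme to be expressed in the fetal ovary. Its gene gave 407, 489, 188 and 177 counts in d6PGCLC replicates 1 to 4, and 2152, 1908, 2795 and 2654 counts in the E12.5 PGC replicates. In CPM these were 51.9, 49.8, 15.6 and 21.5 against 268, 201, 258 and 240. The groups did not overlap, as was the case in the lower direction for 14.8% of all genes, and in d6PGCLCs replicates 1 and 2 were well above replicates 3 and 4. The d6PGCLC mean was 34.7 ± 18.8 CPM and the E12.5 PGC mean 241.6 ± 29.7 CPM (SD, n = 4 each), a log2 fold change of -2.81 ± 0.24 (SE, 95% interval -3.30 to -2.32, adjusted p = 1.07e-08 in edgeR). The two-sided exact permutation test of the CPM gave p = 0.0286, the smallest it can give with 4 against 4 libraries.

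*Sohlh2* moved from the 74.6th to the 96.0th percentile of all genes in RPKM, which is per exonic length, between d6PGCLCs and E12.5 PGCs. Of 10526 genes averaging 20 or more counts, 2709 were lower in d6PGCLCs at the adjusted p, and *Sohlh2* had the 108th lowest fold change of these. It was therefore reduced but readily detected in d6PGCLCs, where the library with the fewest reads of it still had 177.

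TAF4B is needed in the ovary for the pool of primordial follicles, and its gene had the highest mean of the 10 in d6PGCLCs, although per length its range overlapped with that of *Sohlh2*. *Taf4b* gave 850, 904, 1198 and 893 counts in d6PGCLCs and 1549, 1272, 1892 and 1895 counts in E12.5 PGCs. In CPM these were 108, 92.0, 99.4 and 108 against 193, 134, 174 and 171. Every E12.5 PGC library was above every d6PGCLC library, and replicate 2 was the lowest of each group. The mean was 102 ± 7.90 CPM against 168 ± 24.9 CPM, a log2 fold change of -0.72 ± 0.11 (SE, 95% interval -0.94 to -0.50, adjusted p = 1.52e-05 in edgeR, exact permutation p = 0.0286, n = 4 each). The change was 1.65-fold, which is below the fold threshold, and *Taf4b* ranked 1266th among the 2709 lower genes.

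**Figure D2:**
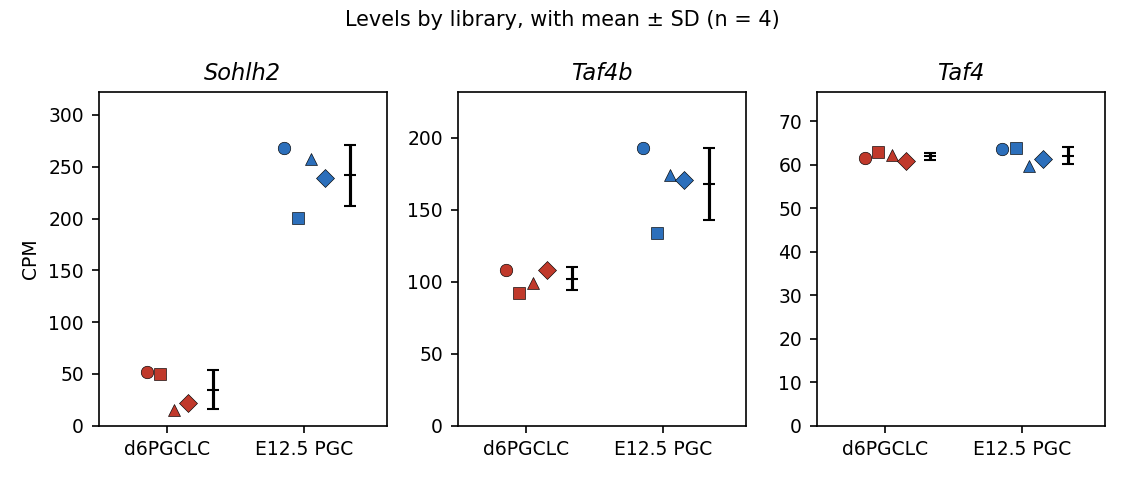
CPM of *Sohlh2*, *Taf4b* and *Taf4* in each library (marker shapes as replicates 1 to 4), with the mean and SD of each group beside the points and the axes starting at 0. The groups do not overlap for *Sohlh2* and *Taf4b*, while *Taf4* lies between 59.7 and 64.0 CPM in all 8 libraries.

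The paralog *Taf4*, which encodes the widely expressed subunit in whose place TAF4B can enter TFIID, did not share the difference. Its mean level was 61.9 ± 0.828 CPM for d6PGCLCs and 62.1 ± 2.04 CPM for E12.5 PGCs (SD, n = 4 each). The log2 fold change was -0.00400 ± 0.0985 (SE, adjusted p = 1 in edgeR). Per exonic length, *Taf4b* was at 0.838, 0.697, 0.761 and 0.846 of *Taf4* in the d6PGCLC libraries and at 1.45, 0.997, 1.39 and 1.33 of it in the E12.5 PGC libraries. The lower paralog in each library was thus *Taf4b* in all d6PGCLC libraries and in 1 E12.5 PGC library, where the levels were almost equal. This order of the paralogs depends on the deposited exonic lengths, while the fold between the populations in their ratio does not. The ratio was 0.786 ± 0.0704 against 1.29 ± 0.202 (SD, exact permutation p = 0.0286, n = 4 each). Such a ratio is taken within a library and does not depend on the scaling between libraries.

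The order of *Sohlh2* and *Taf4b* differed between the populations. In RPKM, read counts scaled by the deposited exonic length and the library size, E12.5 PGCs had *Sohlh2* at 86.7 ± 10.7 and *Taf4b* at 29.2 ± 4.32, without overlap (SD, n = 4 each). In d6PGCLCs *Taf4b* was at 17.7 ± 1.37 and *Sohlh2* at 12.4 ± 6.76 RPKM, and these ranges overlapped. The within-library ratio of *Sohlh2* to *Taf4b* was 0.987, 1.12, 0.324 and 0.409 in d6PGCLCs. It was 2.86, 3.09, 3.05 and 2.89 in E12.5 PGCs, where it varied little. The difference between the means of 0.709 ± 0.401 and 2.97 ± 0.114 had an exact permutation p of 0.0286 (n = 4 each).

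Below these genes most neighbours in the order overlapped. In E12.5 PGCs *Zp3* (0.539 RPKM), *Figla* (0.517), *Nobox* (0.267), *Sohlh1* (0.255) and *Gdf9* (0.173) overlapped with their neighbours in that order. *Zp2* followed at 0.0197 RPKM, and then *Bmp15* and *Zar1* at 0.0147 and 0 RPKM. *Zp2* did not overlap with *Gdf9*, but it had at most 1 count in a library. Their order therefore rests on single counts and on the deposited lengths. In d6PGCLCs *Figla* (0.781 RPKM) and *Zp3* (0.326) came next, then *Nobox* (0.109), *Gdf9* (0.0948), *Sohlh1* (0.0287) and *Zp2* (0.0104), each overlapping with the next, and *Bmp15* and *Zar1* were at 0.

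SOHLH1 is the partner of SOHLH2, yet its gene was close to the limit of detection. *Sohlh1* had 0, 1, 1 and 0 counts in d6PGCLCs and 4, 3, 6 and 3 counts in E12.5 PGCs. All d6PGCLC libraries were below all E12.5 PGC libraries, but only 2 of the latter exceeded 3 counts. The pooled counts gave a ratio of 7.70 for E12.5 PGCs over d6PGCLCs with an exact 95% counting interval of 1.81 to 69.0. The fitted log2 fold change was -2.69 ± 1.15 (SE, adjusted p = 0.0217 in edgeR, exact permutation p = 0.0286, n = 4 each). The adjusted p exceeded 0.05 without d6PGCLC replicate 1 (0.0559) or 4 (0.0629), without E12.5 PGC replicate 1 (0.0526) or 3 (0.0776), and with the replicate number as a block (0.0716). Per length *Sohlh2* was far above *Sohlh1* in both populations, at 12.4 against 0.0287 RPKM in d6PGCLCs and 86.7 against 0.255 RPKM in E12.5 PGCs.

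NOBOX is a homeodomain factor of the primordial and growing oocyte that activates *Gdf9* and other genes. *Nobox* had 1, 0, 3 and 5 counts in d6PGCLCs and 7, 5, 8 and 3 counts in E12.5 PGCs. The groups overlapped, and in CPM E12.5 PGC replicates 1 and 3 were above the highest d6PGCLC library. The log2 fold change was -1.26 ± 0.75 (SE, adjusted p = 0.211 in edgeR, n = 4 each), and -2.05 without d6PGCLC replicate 4 (adjusted p = 0.0685). The pooled ratio was 2.46 in favour of E12.5 PGCs with a counting interval of 1.10 to 6.04. That interval leaves out the spread between libraries, which the edgeR test includes.

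FIGLA is known for activating the zona pellucida genes through an E-box upstream of their start. *Figla* had 7, 17, 0 and 1 counts in d6PGCLCs and 5, 7, 4 and 1 counts in E12.5 PGCs. The d6PGCLC libraries spanned the whole range of the E12.5 PGC libraries, and all but 1 of their 25 counts came from replicates 1 and 2. The log2 fold change was 0.60 ± 0.81 (SE, adjusted p = 0.715 in edgeR, n = 4 each), and its sign turned to -0.54 when d6PGCLC replicate 2 was left out. The 95% interval from -1.08 to 2.28 allows a level in d6PGCLCs that is lower or higher.

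The secreted factors GDF9 and BMP15 are made by growing oocytes and signal to granulosa cells. *Gdf9* had 4, 2, 0 and 0 counts in d6PGCLCs and 1, 6, 2 and 4 counts in E12.5 PGCs, with overlap between the groups. Its log2 fold change was -0.96 ± 0.96 (SE, adjusted p = 0.538 in edgeR, n = 4 each), and it was -2.11 without d6PGCLC replicate 1 (adjusted p = 0.154). *Bmp15* had no count in d6PGCLCs and 2 counts in all in E12.5 PGCs, both in replicate 3. Both groups were under the limit of 3 counts in every library and no fold is given for this gene.

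The zona glycoproteins ZP2 and ZP3 form the coat of the growing oocyte. *Zp3* had 1, 2, 13 and 6 counts in d6PGCLCs and 10, 6, 13 and 5 counts in E12.5 PGCs, and its groups overlapped. The log2 fold change was -0.62 ± 0.59 (SE, adjusted p = 0.533 in edgeR, n = 4 each), and -1.29 without d6PGCLC replicate 3 (adjusted p = 0.171). *Zp2* had a single count in d6PGCLCs, in replicate 4, and 2 counts in E12.5 PGCs, in replicates 1 and 2. ZAR1 binds maternal mRNAs in the oocyte, and *Zar1* had no count in any of the 8 libraries. At this depth *Zp2*, *Bmp15* and *Zar1* were not detectable above 3 counts in either population.

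Replicates 1 and 2 of the d6PGCLCs stood apart from replicates 3 and 4 in *Sohlh2*. Its highest library was 3.33-fold above its lowest in d6PGCLCs and 1.34-fold in E12.5 PGCs. Over the 8128 genes averaging 100 or more counts, the median of this spread was 1.31-fold and 1.22-fold, which placed *Sohlh2* at the 99.4th percentile in d6PGCLCs and at the 73.9th in E12.5 PGCs. *Taf4b* had a spread of 1.18-fold in d6PGCLCs and 1.44-fold in E12.5 PGCs, at the 21.3rd and 85.7th percentile. *Figla* and *Gdf9* had their higher counts in the same d6PGCLC replicates 1 and 2, while *Nobox* and *Zp3* had theirs in replicates 3 and 4, all at few counts.

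The germ cell gene *Dazl*, an RNA-binding regulator of germ cell development, showed the same division of the d6PGCLC replicates. It was at 50.5, 63.9, 17.8 and 18.5 CPM in d6PGCLCs, and at 1580, 1018, 1299 and 1151 CPM in E12.5 PGCs. *Ddx4*, which encodes a germ cell RNA helicase, was at 38.2, 42.8, 27.2 and 33.9 CPM in d6PGCLCs, with the same replicates on top. Per length, *Sohlh2* was at 1.17 ± 0.204 of *Dazl* in d6PGCLCs and at 0.236 ± 0.0201 of it in E12.5 PGCs, and at 1.25 ± 0.522 against 0.425 ± 0.0186 of *Ddx4* (SD, exact permutation p = 0.0286 for each, n = 4 each). *Sohlh2* was thus reduced less in d6PGCLCs than either of these genes.

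In E12.5 PGCs replicates 1 and 3 had the highest CPM of *Sohlh2*, *Taf4b*, *Sohlh1*, *Nobox* and *Zp3*, which is 5 of the 8 genes for which a highest pair was defined. Of these, *Sohlh1*, *Nobox* and *Zp3* had at most 13 counts in an E12.5 PGC library. The share of all genes with this highest pair was not determined, so that the tally is only a description. *Figla* and *Zp2* were highest in replicates 1 and 2, and *Gdf9* in replicates 2 and 4. *Stra8*, which is induced at meiotic entry, had the same highest pair as the 5 genes. It was at 20.5 and 18.9 CPM in replicates 1 and 3 and at 2.74 and 3.70 CPM in replicates 2 and 4. The 5 genes did not all show such a gap, since *Taf4b* was at 174 and 171 CPM in replicates 3 and 4. *Dazl* and *Ddx4* were also highest in replicates 1 and 3. For *Sohlh2* the pools spanned 201 to 268 CPM, well above the d6PGCLC libraries, while for *Taf4b* they spanned 134 to 193 CPM, a range close in size to the difference between the populations. The relation of *Stra8* to these genes across pools was not tested.

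**Figure D3:**
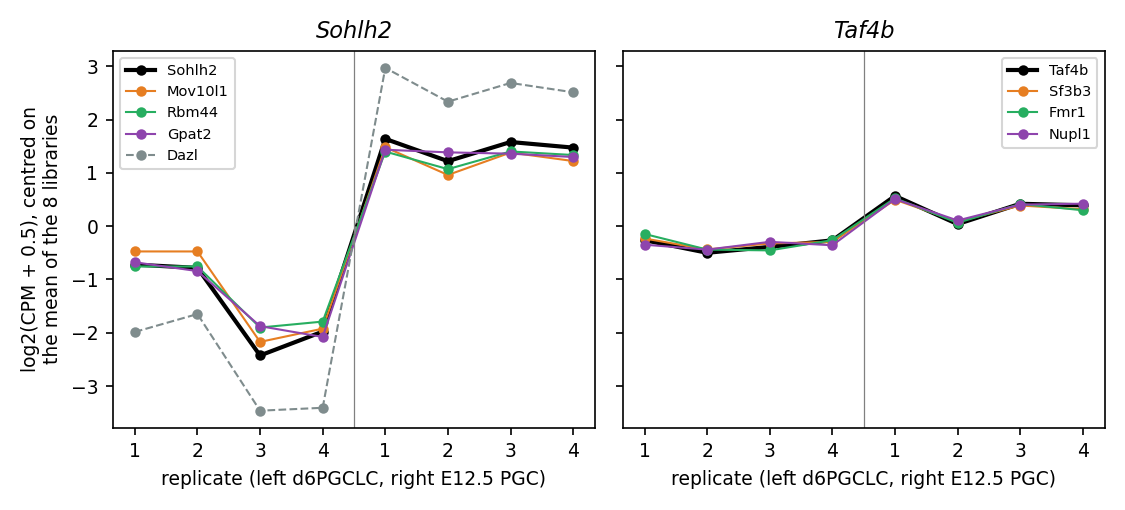
Profiles of *Sohlh2* with *Dazl* (left) and of *Taf4b* (right) with the 3 nearest genes of each, as log2(CPM + 0.5) centred on the mean of the 8 libraries, plotted by replicate with d6PGCLCs to the left and E12.5 PGCs to the right of the line. The genes near *Sohlh2* share its higher values in d6PGCLC replicates 1 and 2, and those near *Taf4b* share its low values in replicate 2 of E12.5 PGCs.

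The genes with the profile most like that of *Sohlh2* were sought in the same 8128 genes, by the root mean square difference of centred log2(CPM + 0.5) over the 8 libraries. These were *Mov10l1* (0.229), *Rbm44* (0.235) and *Gpat2* (0.241). *Mov10l1* was at 46.8, 46.8, 14.1 and 16.8 CPM in d6PGCLCs and at 183, 127, 171 and 153 CPM in E12.5 PGCs. *Rbm44* was at 36.8, 36.8, 16.3 and 17.7 against 165, 132, 166 and 158 CPM, and *Gpat2* at 45.9, 40.9, 19.7 and 17.1 against 200.1, 193, 190.1 and 182 CPM. All had the higher d6PGCLC values in replicates 1 and 2. The genes nearest to *Taf4b* were *Sf3b3* (0.0543), *Fmr1* (0.0639) and *Nupl1* (0.0682), with log2 fold changes of -0.65, -0.66 and -0.73. The 8 libraries and the difference between 2 populations set these likenesses, which are given as a description.

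A further 54 genes of the table, in 4 lists, placed the members among other genes of the oocyte and among their partners. Of these 54 genes, 3 were called lower in d6PGCLCs and 1 higher, 14 were lower and 7 higher at the adjusted p alone (edgeR, n = 4 each), and 15 were at or under 3 counts in every library, 8 of them without a count. The median log2 fold change was -0.00200. Of all genes, 3.37% were called lower and 3.24% higher, and 15.4% and 16.1% were lower and higher at the adjusted p alone.

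**Figure D4:**
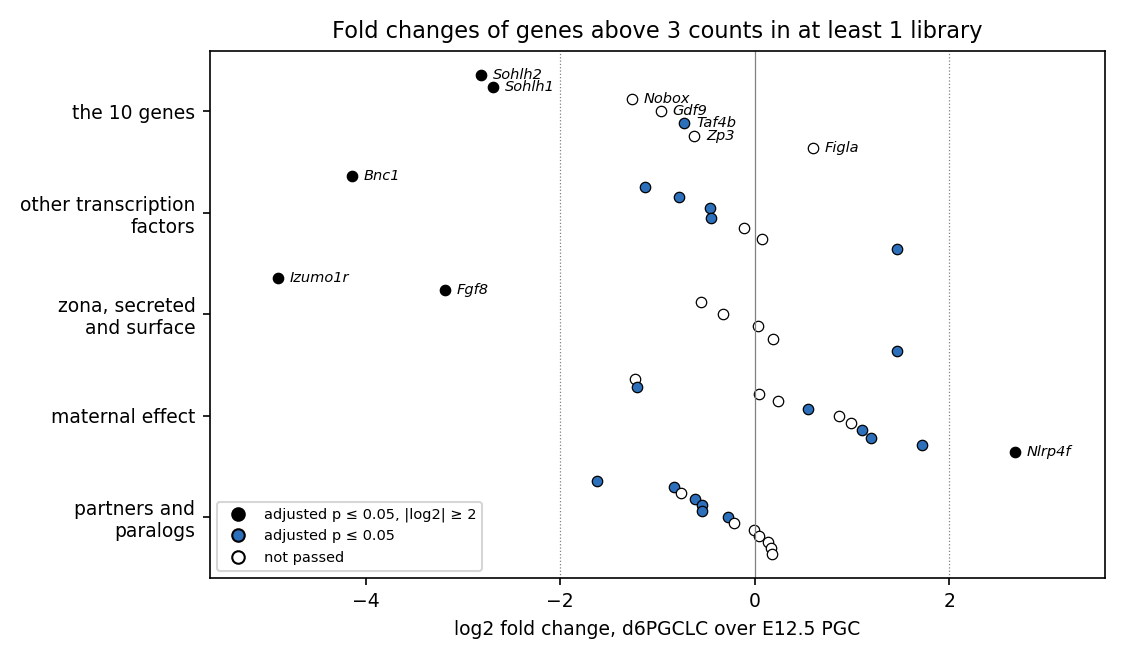
Fitted log2 fold changes (d6PGCLC over E12.5 PGC) of the 10 genes and of the 4 further lists, each point a gene above 3 counts in at least 1 library. Filled black points passed an adjusted p of 0.05 and an absolute log2 fold change of 2 (dotted lines), blue points passed the adjusted p alone and open points passed neither, with *Bnc1*, *Izumo1r* and *Fgf8* on the lower side and *Nlrp4f* on the higher side.

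Of 9 other transcription and RNA regulators of the oocyte, 5 were lower, 1 was higher and 3 did not pass. *Lhx8* was also chosen for this list but was not found among the genes with counts, so that it could not be assessed. *Bnc1*, which encodes the zinc finger protein basonuclin 1, had 3, 10, 8 and 13 counts in d6PGCLCs against 169, 140, 183 and 131 counts in E12.5 PGCs (log2 fold change -4.14 ± 0.33, SE, adjusted p = 4.72e-10 in edgeR, n = 4 each). Its groups were far apart. *Sub1* (-0.46), *Dynll1* (-0.78), *Elavl2* (-0.45) and *Ybx2* (-1.12), which encodes a germ cell mRNA-binding protein, were lower by less than the fold threshold. *Stat3*, the effector of LIF, was higher in d6PGCLCs (1.47 ± 0.17, SE, adjusted p = 7.24e-07). *Nr6a1*, an orphan nuclear receptor gene, did not pass, at 491 ± 46.2 CPM against 532 ± 66.1 CPM (SD, adjusted p = 0.483).

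Of 10 zona, secreted and surface protein genes, 2 were lower, 1 was higher and 7 did not pass, 3 of these without a count. *Izumo1r*, which encodes JUNO, the sperm receptor on the egg, had 2, 0, 0 and 1 counts in d6PGCLCs and 25, 27, 25 and 31 counts in E12.5 PGCs. The pooled ratio was 34.6 with a counting interval of 11.5 to 171 (log2 fold change -4.90 ± 0.88, SE, adjusted p = 7.34e-07 in edgeR, n = 4 each). *Fgf8*, a growth factor gene, had 1, 1, 0 and 0 counts against 7, 3, 6 and 7 counts, with a pooled ratio of 11.1 and a counting interval of 2.73 to 96.8 (adjusted p = 0.00523 in edgeR, n = 4 each), a call lost under both filters and with a prior count of 2. *Izumo1r* was thus detected in every E12.5 PGC pool, unlike *Zp2* and *Bmp15*.

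*Gpr3*, whose receptor keeps oocytes in meiotic arrest, averaged 3.58 ± 2.13 CPM over the d6PGCLC libraries and 1.30 ± 0.702 CPM over the others (SD, log2 fold change 1.47, adjusted p = 0.0114 in edgeR, n = 4 each). *Kit*, the receptor for KIT ligand on germ cells, was at 484 ± 25.5 against 424 ± 37.9 CPM and did not pass (adjusted p = 0.113). *Gja4*, a connexin gene of the oocyte, was at 4.83 ± 0.796 against 4.76 ± 0.901 CPM. The third zona gene in the table, *Zp1*, had between 2 and 4 counts in every library.

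Among 22 maternal effect and oocyte cytoplasm genes, 5 were higher in d6PGCLCs and 1 was lower, while 11 were at or under 3 counts in every library. *Nlrp4f*, of the NLRP family of oocyte proteins, had 8, 16, 9 and 6 counts in d6PGCLCs against 0, 1, 4 and 1 counts in E12.5 PGCs (log2 fold change 2.67 ± 0.76, SE, adjusted p = 0.00256 in edgeR, n = 4 each). This call was lost under both filters on low counts and with a prior count of 2. Reads were counted only where they mapped uniquely, so that closely related *Nlrp* genes may lose reads. *Ooep*, *Tle6* and *Khdc3*, which encode parts of the subcortical maternal complex, were higher with log2 fold changes of 1.19, 0.55 and 1.72, as was *Nlrp9b* with 1.10. In the same list *Padi6* (0.99, adjusted p = 0.209 in edgeR) and *Zbed3* (0.05) did not pass. Neither did *Nlrp5*, which was at or under 3 counts in every library. *Ooep* was at 33.6, 52.5, 38.7 and 32.9 CPM against 15.1, 17.3, 16.1 and 20.4 CPM, without overlap. *Cpeb1*, which encodes a regulator of polyadenylation of stored mRNAs, was lower (-1.21 ± 0.10, SE, adjusted p = 8.26e-09), and *Tcl1*, a stem cell and oocyte gene, did not pass (adjusted p = 0.288).

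Of 13 partners and paralogs of the 10 gene products, 6 were lower at the adjusted p and none was called at the fold threshold. None was higher at the adjusted p in edgeR, and 1 was at an unadjusted p of at most 0.05. *Tcf12* (-0.83 ± 0.09, SE, adjusted p = 2.93e-07) encodes an E protein that pairs with helix-loop-helix factors, and *Tcf3*, which encodes another, did not pass (0.16, adjusted p = 0.131). *Taf9b* (-1.62), *Tbp* (-0.28), *Tgfbr1* (-0.54), *Furin* (-0.61) and *Smad2* (-0.55) were the other lower genes. *Tbp* encodes the TATA-binding subunit of TFIID, and *Tgfbr1* and *Smad2* encode a receptor and an effector of GDF9 signalling. The E protein genes differed in level, with *Tcf3* at 670 ± 30.2 against 598 ± 8.35 CPM and *Tcf4* at 4.81 ± 0.876 against 5.61 ± 1.12 CPM (SD, n = 4 each).

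The libraries held between 7991437 and 12024841 counted reads. The summed level of 11 germ cell markers was between 4664 and 5893 CPM in d6PGCLCs and between 5144 and 5622 CPM in E12.5 PGCs. Of these markers 6 were higher in d6PGCLCs and 3 lower, 2 of them called, *Dazl* and *Ddx4*. *Pou5f1* (1632 against 980.1 CPM) and *Dppa5a* (1057 against 555 CPM) were the highest of these markers in d6PGCLCs. In E12.5 PGCs the highest was *Dazl* (1262 CPM, against 37.7 CPM in d6PGCLCs), so that the similar sums differed in their make-up. Markers of gonadal somatic cells were low and unequal. Of 11 such genes 7 were lower in d6PGCLCs at the adjusted p (edgeR, n = 4 each), with sums of 1.49 to 3.39 CPM against 7.04 to 12.3 CPM, and all 11 had counts in E12.5 PGCs. The summed level of these markers was below that of *Sohlh2* in each library. In E12.5 PGCs it was below the level of *Bnc1* (16.1 CPM on average), also called lower, and above the mean levels of *Sohlh1* (0.410 CPM), *Fgf8* (0.594 CPM) and *Izumo1r* (2.77 CPM). All of these called genes moved in the same direction as the markers, and the part of the markers in these results was not tested. Of 8 meiotic entry genes 7 were lower and 1, *Rec8*, was higher in d6PGCLCs. The sums of 9 pluripotency and epiblast markers were 1453 to 1593 CPM in d6PGCLCs and 739 to 813 CPM in E12.5 PGCs, with 4 genes higher and 2 lower. Those of 6 blood and endothelium markers were 20.4 to 35.6 CPM and 15.2 to 25.7 CPM, with 1 gene higher and 1 lower. The lower gene was *Tyrobp*, with 26 counts in d6PGCLCs and 65 in E12.5 PGCs (log2 fold change -1.20, adjusted p = 0.0462 in edgeR). The leukocyte genes *Ptprc* and *Lyz2* had 1 count each in d6PGCLCs and none in E12.5 PGCs. E12.5 PGC replicate 4 had 99 counts on 38 Y-linked genes, and all other libraries had none. Without that library the log2 fold change was -2.81 for *Sohlh2* (adjusted p = 1.56e-08 in edgeR), -0.71 for *Taf4b* (8.18e-05) and -2.85 for *Sohlh1* (0.0271).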

How the data were processed

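Poly(A) RNA was sequenced from 4 pools each of d6PGCLCs and E12.5 female PGCs as stranded single-end libraries of 100 base reads. The authors deposited raw counts, without normalization, after alignment with STAR to GRCm38 and ERCC sequences. They counted uniquely mapped reads with QuasR on the exons of an isoform chosen at random per gene, and removed genes with overlapping promoters at random. Use of strand in counting is not given in the sources used here, but no exonic base of the 10 genes lies in an exon of another GENCODE M21 gene. Overlap with introns of other genes was not checked. The deposited table also gives exonic lengths, used for RPKM. The count columns all belonged to the 8 samples, and 21907 of 21950 identifiers had a RefSeq symbol.

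Counts were fitted over all 21950 genes with edgeR 4.0.16 in R 4.3.3 (TMM, glmQLFit and glmQLFTest, prior count 0.125, no filter, cell type as the only term) and called where the Benjamini-Hochberg adjusted p did not exceed 0.05 and the log2 fold change was 2 or more in either direction. Standard errors come from the inverse information and the quasi-likelihood variance. Single values and ratios were compared by exact permutation tests. Motifs were matched exactly on both strands. The code was tested on simulated counts.

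All 10 genes are named, with the called genes of each further list, up to 4 of the rest with the highest mean count, and the 3 nearest profiles. *Lhx8* is named as a chosen gene that was not found. *Stat3*, *Ybx2*, *Khdc3*, *Nlrp9b*, *Padi6*, *Zbed3*, *Nlrp5*, *Taf9b*, *Tbp*, *Tgfbr1*, *Taf4*, *Tcf4*, *Pou5f1*, *Dppa5a*, *Ptprc*, *Lyz2*, *Tyrobp*, *Dazl*, *Ddx4*, *Stra8* and *Rec8* were named after their values were seen. The genes and lists were chosen with earlier results of these data known. As alternatives, DESeq2 1.42.0, the likelihood ratio test, 3 further normalizations, 2 filters, prior count 2, a replicate block, a length offset, a stricter adjusted p of 0.01 and the omission of each library were tried. The libraries of a group differed by more than sampling noise, and none was left out. The oocyte libraries of the study were not analysed here.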

Additional observations from a re-analysis of the deposited data

Results flagged for a closer look

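Within groups of 4 libraries, 4 of 57 gene and group combinations examined had a library that lay far from the other libraries of its group. For continuous values chance gives about 1 in 20, or 2.85. In d6PGCLCs replicate 4 was highest for *Tcf12*, at 101.7 CPM against 95.2 to 95.4 CPM in the other replicates, a small difference that stood out because those lay close together. In E12.5 PGCs replicate 4 was highest for *Tle6*, at 52.6 CPM against 48.5 to 49.2 CPM. The other flags were single reads or pairs of reads. *Bmp15* was at 0.184 CPM in E12.5 PGC replicate 3, which is 2 counts, and *Zp2* at 0.121 CPM in d6PGCLC replicate 4, which is 1 count, with all other libraries of the group at 0. Neither exceeds the limit of 3 counts. With all other libraries of a group at 0, any count is flagged, so that the rate of 1 in 20 does not apply to these flags.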

How the results depend on the processing

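*Sohlh2* and *Taf4b* were lower in d6PGCLCs under every alternative run, with log2 fold changes of -2.93 to -2.80 and -0.76 to -0.66 across settings and of -3.07 to -2.56 and -0.81 to -0.65 when single libraries were left out, and all adjusted p-values were at most 0.05. *Sohlh1* rested on 2 counts in d6PGCLCs and 16 in E12.5 PGCs. The number of members called lower fell from 2 to 1, with *Sohlh2* alone, under a filter of CPM above 1 in at least 3 samples, under filterByExpr, with a prior count of 2, at an adjusted p of at most 0.01 and with a replicate block, and ranged from 1 to 2 when single libraries were left out. The filters remove *Sohlh1* from the test, and a prior count of 2 brings its log2 fold change to -1.25. Leaving out single libraries gave *Sohlh1* log2 fold changes of -3.13 to -2.40 with adjusted p-values of 0.0271 to 0.0776, above 0.05 in 4 of 8 cases. *Figla* turned to -0.54 without d6PGCLC replicate 2, against 0.24 to 1.07 without any other library. Of the other oocyte genes, the called higher *Nlrp4f* was lost under both filters and with a prior count of 2, which leaves 0 such calls, and under the same settings the calls of lower genes fell from 3 to 2, with *Fgf8* lost. Leaving out single libraries gave -2.11 to -0.48 for *Gdf9*, -2.05 to -0.85 for *Nobox* and -1.29 to -0.34 for *Zp3*, none of which passed the adjusted p.

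The sample titles do not say whether libraries with the same replicate number were paired. Same-numbered libraries had correlations of their deviations of 0.273, 0.104, -0.0227 and 0.0352. Those of differently numbered libraries ran from -0.175 to 0.114, so that the value for replicate 1 was the highest of all. So few values cannot decide whether same-numbered libraries shared a batch, which was not tested. With the replicate block, *Sohlh1* had a log2 fold change of -2.75 (adjusted p = 0.0716), and the calls over all genes moved from 740 lower and 712 higher to 638 and 642. At 3 counts per library, a gene such as *Zp2*, *Bmp15* or *Zar1* cannot be compared between the populations at this depth.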

Other observations

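Many of the lengths behind the RPKM values differed from those of annotated transcripts. Of 21324 genes compared with GENCODE M21, 24.3% had a deposited length equal to that of a transcript plus 40 bases for each exon, as if each exon had 20 bases added on either side, and 0.103% had a length equal to that of a transcript. Among the 10 genes this held for *Figla* (120 bases over 3 exons), *Nobox* (360 bases over 9 exons) and *Taf4b* (600 bases over 15 exons). RPKM of short or many-exon genes are lowered by such an excess if no reads on it were counted, which was not tested. CPM and the fold changes of the main fit do not use these lengths.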
